A study of Mus musculus with 9 samples.

Results

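The antioxidant programme under the transcription factor NRF2 was followed in mouse liver through 10 genes: Nfe2l2, which encodes NRF2, its inhibitor Keap1, and the target genes Nqo1, Hmox1, Gclc, Gclm, Srxn1, Txnrd1, Osgin1 and Slc7a11. They were taken by symbol from the gene tables. All 10 were among the 17846 genes listed, and all 10 were among the 13619 genes with enough counts to be tested.

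NRF2 is a basic leucine zipper factor that is held by KEAP1, an adaptor of the CUL3 ubiquitin ligase, and sent to degradation. Electrophiles and oxidants modify KEAP1, and NRF2 that escapes it pairs with a small MAF protein on antioxidant response elements near genes of glutathione synthesis, thioredoxin recycling, NADPH supply, quinone reduction and heme breakdown. This control acts largely on the NRF2 protein, which an mRNA library does not measure. In the liver the pathway is known for its part in handling xenobiotics and reactive oxygen.

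All 9 livers came from male wild-type (WT) C57/BL mice, with 1 mRNA library per mouse. The Control mice (Con; replicates 3, 4 and 29) ate normal chow and stayed sedentary. The mice called NASH (Ath diet; replicates 5, 19 and 20) were given for 20 weeks an atherogenic diet with cholesterol and cholate, which brings on steatohepatitis, and stayed sedentary. The NASH+Exercise mice (EXE+Ath diet; replicates 8, 18 and 22) had 12 weeks of the same diet and then, from 20 weeks of age and still on it, 8 weeks of treadmill running. All mice were fasted overnight before the livers were taken, so the values describe fasted liver at the end of the regimen. No group ran on normal chow, so the effect of training without the Ath diet was not measured.

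The 9 libraries held 20085976 to 22495408 estimated counts and 15440 to 16371 genes with at least 1 count. Values by mouse are CPM, counts scaled to a common library total after TMM scaling, always in the order of replicates given above. TMM factors ran from 0.80 to 0.976 in Control, from 1.09 to 1.23 in NASH and from 0.912 to 1.08 in NASH+Exercise. Scaling by library size alone moved the median of log2 fold change over all genes from 0.013 to 0.359 for NASH against Control and from -0.03 to -0.24 for NASH+Exercise against NASH, and directions that turn with it are named with the gene. The tissue label was checked against 8 hepatocyte marker genes, which summed to 70130 to 131800 CPM across the livers.

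The promoters of the genes are shown first, because the antioxidant response element is the sequence by which NRF2 finds its targets. RefSeq promoter windows of GRCm38.p6, from 250 bases before to 50 bases after a start site, were at hand for 8 of the 10 genes, in 10 windows, of which 3 belonged to Txnrd1. Hmox1 and Gclc had none. The windows were searched on both strands for the core letters TGACNNNGC and for the near form TGAGNNNGC. A match was held by 6 of the 8 genes, in 6 of the 10 windows. The 7 stretches with a match before the start site are printed 5′ to 3′ on the strand of the gene, with the match in capitals. A match on the opposite strand therefore begins with GC.
Nfe2l2, chr2:75704875-75704913, minus strand, 240 bases before the start: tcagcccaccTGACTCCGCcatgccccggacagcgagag
Gclm, chr3:122245403-122245451, plus strand, 134 bases before the start: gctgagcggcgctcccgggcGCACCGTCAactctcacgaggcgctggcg
Srxn1, chr2:152105459-152105507, plus strand, 45 bases before the start: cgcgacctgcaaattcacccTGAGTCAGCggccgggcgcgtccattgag
Srxn1, chr2:152105346-152105394, plus strand, 158 bases before the start: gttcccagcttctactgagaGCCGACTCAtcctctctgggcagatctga
Txnrd1, chr10:82859094-82859142, plus strand, 92 bases before the start: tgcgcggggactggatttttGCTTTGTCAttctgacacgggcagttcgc
Osgin1, chr8:119437028-119437076, plus strand, 99 bases before the start: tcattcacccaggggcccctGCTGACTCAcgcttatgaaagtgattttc
Slc7a11, chr3:50443682-50443730, minus strand, 97 bases before the start: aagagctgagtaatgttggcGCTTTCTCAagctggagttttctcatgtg

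Srxn1 held 1 further match, GCTAGGTCA, which begins 29 bases past its start. No match was found in the windows of Keap1 and Nqo1 or in the other windows of Txnrd1. This says only that these letters are absent from 300 bases around those starts. The letters are common. Of 32851 mouse windows, 12.4% held TGACNNNGC, 17.6% held TGAGNNNGC and 27.8% held either. The string TGAGTCAGC, picked after the matches had been seen, stands in the Srxn1 window on the gene's strand and in the Osgin1 window on the opposite strand, and in 136 of the 32851 windows (0.414%). A match is a description of letters, and binding was not measured.

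Corrected for transcript length, in TPM, which scales reads by transcript length and library total, the 10 genes spanned a wide range in the same liver. In Control, Gclc had 207.2 ± 49.3 TPM, Osgin1 203 ± 127 TPM and Gclm 123 ± 15.04 TPM (mean ± SD, n = 3), and the values of these neighbours overlapped. Txnrd1 followed at 55.1 ± 6.23 TPM. Nfe2l2, Srxn1, Keap1 and Hmox1 came next, at mean levels of 38.5, 32.7, 28.9 and 23.6 TPM, each overlapping its neighbour in that order. Nqo1 stood below them at 5.86 ± 1.57 TPM, and Slc7a11 was listed at 0.01, 0 and 0 TPM.

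In NASH the order began with Osgin1, at 536 ± 139 TPM, above Gclc at 209.2 ± 44.6 TPM and Gclm at 151 ± 16.4 TPM (mean ± SD, n = 3), with no overlap between these neighbours. Hmox1 had moved from the eighth place in Control to the fourth, at 87.4 ± 12.2 TPM, and overlapped Nfe2l2 at 74.9 ± 16.1 TPM, which overlapped Txnrd1 at 66.8 ± 3.27 TPM. Srxn1, Keap1 and Nqo1 followed at 45.8, 30.9 and 12.3 TPM without overlap, and Slc7a11 closed the order at 0.403 TPM. In NASH+Exercise, Osgin1 again led, at 628 ± 208 TPM, and Gclc at 143 ± 45.9 TPM overlapped Gclm at 126 ± 22.3 TPM. Hmox1 kept the fourth place at 68.3 ± 3.50 TPM, above Txnrd1 at 55.7 TPM and Nfe2l2 at 47.2 TPM, which overlapped each other. Keap1 at 26.4 TPM and Srxn1 at 25.3 TPM overlapped as well, and Nqo1 and Slc7a11 closed the order at 5.53 and 0.147 TPM. Because a rank within a liver depends on the other genes, these orders are a description and were not tested.

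**Figure D1:**
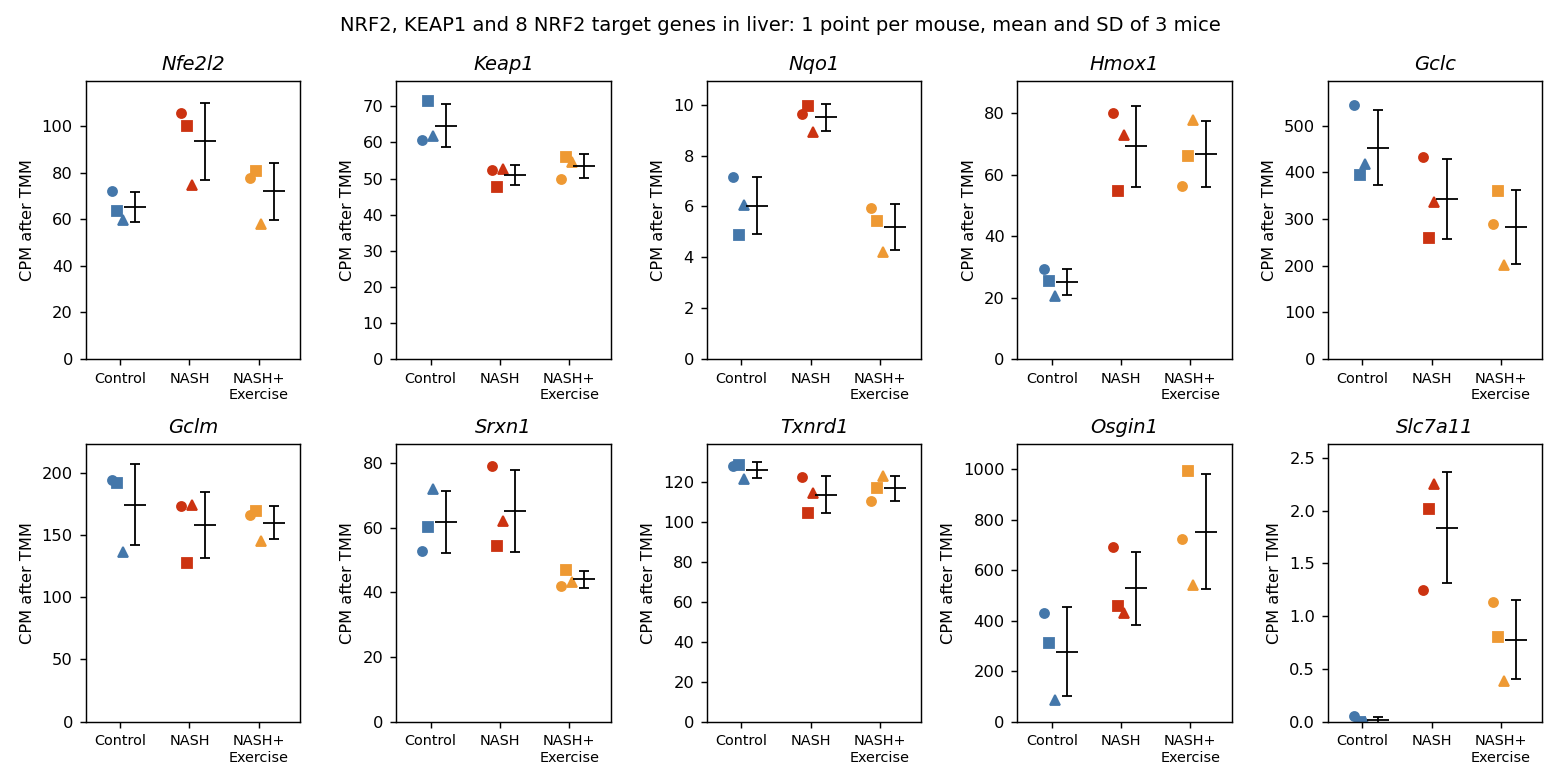
CPM after TMM scaling (vertical axes, linear from 0) of each of the 10 genes in every mouse, by group (horizontal axis), with the mean and SD of 3 mice beside the points. Hmox1 and Slc7a11 lie above Control in all 6 mice on the Ath diet, and the NASH+Exercise points of Nqo1 lie below all 3 NASH points and overlap those of Control.

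To see how the Ath diet altered the programme, NASH livers were compared with Control livers. Hmox1, the inducible heme oxygenase, and Slc7a11, the cystine carrier that feeds glutathione synthesis, were differentially expressed genes (DEGs, adjusted p under 0.05 and absolute log2 fold change above 1), and both were higher in NASH. Nfe2l2 and Nqo1 rose by less, Keap1 fell slightly, and the remaining 5 genes did not pass. Adjusted p values come from the quasi-likelihood test of edgeR, adjusted by Benjamini-Hochberg over all 13619 genes, and "rose" and "fell" mean an adjusted p under 0.05. In counts, 2 of the 10 genes were DEGs, where 18.3% of all tested genes were, and 5 had an unadjusted p under 0.05, where 45.3% did. At an adjusted p under 0.05 alone, 4 rose and 1 fell, where 21.2% of all tested genes rose and 14.4% fell (35.6% in all). Values of the groups did not overlap for 5 of the 10 genes, a share near the 49.6% of all tested genes. The median log2 fold change of the 10 was 0.30, against 0.013 over all tested genes. Slc7a11 passed the filter on low counts only through the groups where it is high, so it had to differ, and no support is drawn from these counts.

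The livers also differed in the mRNA levels of cell type marker genes. The summed level of 14 macrophage markers was 131 to 221 CPM in Control and 1194 to 1309 CPM in NASH, and 13 of the 14 were DEGs, all higher. Of 8 neutrophil markers 6 were DEGs, of 8 T and NK cell markers all 8, and of 9 stellate cell markers 4, again all higher. Fewer were DEGs among markers of other cells, with 2 of 8 for sinusoidal endothelial cells, 2 of 4 tested for cholangiocytes, 1 of 6 for erythroid cells and 0 of 5 for B cells. Some lists are low in Control, such as the T and NK cell markers, which summed to 3.27 to 5.46 CPM there. Such lists can hold genes that passed the filter on low counts only through the groups where they are high. No support is drawn from these counts of higher DEGs. Of all tested genes 18.3% were DEGs, so the counts for sinusoidal endothelial and erythroid cells lie near that share and show no difference in these cells. Hepatocyte markers summed to 115300 to 131800 CPM in Control and 70130 to 98770 CPM in NASH, and 3 of 8 fell, where 14.4% of all tested genes did. As DEGs, 1 of the 8 was lower, where 3.03% of all tested genes were. In whole liver, a change in the share of a cell type cannot be told apart from a change of RNA per cell, and the part of these cells in the values below was not tested.

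**Figure D2:**
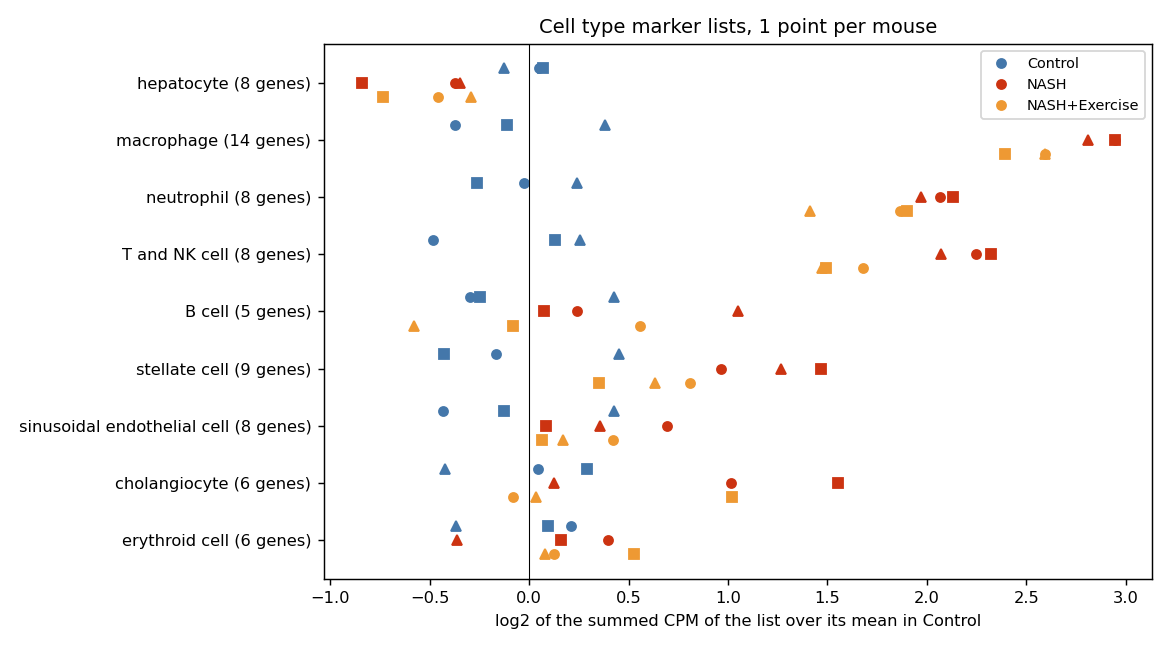
Log2 of the summed CPM of each marker list over the mean of that list in Control (horizontal axis, 0 at the Control mean), by cell type (vertical axis), 1 point per mouse coloured by group. The macrophage points of NASH (1194 to 1309 CPM) and of NASH+Exercise (893 to 1027 CPM) lie far to the right of Control (131 to 221 CPM), and the hepatocyte points of both groups lie to the left.

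The regulators are taken first. Nfe2l2 (Entrez Gene 18024, chr2:75675513-75704663) had 72.2, 63.4 and 59.9 CPM in Control, 106, 100.2 and 74.7 CPM in NASH and 77.5, 80.6 and 57.9 CPM in NASH+Exercise. Each NASH mouse was above each Control mouse, while the NASH+Exercise mice ran from below the lowest Control mouse into the range of NASH. Against Control, Nfe2l2 rose in NASH by a log2 fold change of 0.52 (standard error (SE) 0.17, edgeR adjusted p = 0.0338), a fold of 1.44. This call was lost without Control replicate 4 or 29 or NASH replicate 5 or 19, when the edgeR adjusted p was 0.0765, 0.113, 0.12 and 0.132.

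Keap1 (50868, chr9:21229730-21239332), the adaptor that hands NRF2 to the ligase, had 60.7, 71.5 and 61.7 CPM in Control, 52.5, 47.7 and 52.7 CPM in NASH and 49.8, 56.1 and 54.5 CPM in NASH+Exercise. Every mouse on the Ath diet was below every Control mouse on this scale. Keap1 fell in NASH by 0.34 on the log2 scale (SE 0.11, edgeR adjusted p = 0.0343), but the change was 0.010 with library size alone (edgeR adjusted p = 0.939) and 0.10 on log2(TPM + 1) (limma adjusted p = 0.438), so its direction rested on the scaling. It was also past the threshold in neither DESeq2 (adjusted p = 0.0683), nor the edgeR fits without Control replicate 4 or NASH replicate 5, 19 or 20 (adjusted p = 0.0662 to 0.116), nor in edgeR on the 6 mice (adjusted p = 0.0646). Over all alternatives its edgeR adjusted p ran from 0.0337 to 0.939.

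Nqo1 (18104, chr8:107388225-107403205), the quinone reductase that is widely read as an NRF2 reporter, had 7.14, 4.89 and 6.07 CPM in Control, 9.64, 9.93 and 8.93 CPM in NASH and 5.94, 5.43 and 4.19 CPM in NASH+Exercise. The NASH mice stood above all 6 other mice, and the other groups overlapped. From Control to NASH, Nqo1 rose by a log2 fold change of 0.65 (SE 0.19, edgeR adjusted p = 0.0196), a fold of 1.57. Without Control replicate 4 or NASH replicate 5 or 19 the edgeR adjusted p was 0.0609, 0.055 and 0.0706.

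Hmox1 (15368, chr8:75093618-75100593), which opens the heme ring to give biliverdin, iron and carbon monoxide, had 29.2, 25.5 and 20.6 CPM in Control, 80.0, 54.6 and 72.9 CPM in NASH and 56.2, 66.2 and 77.7 CPM in NASH+Exercise. Both groups on the Ath diet lay above Control and overlapped each other. In NASH the log2 fold change was 1.46 (95% interval 1.05 to 1.88, edgeR adjusted p = 0.000192), a fold of 2.76. It was called under all 15 alternatives, with log2 fold changes from 1.30 to 1.85. Hmox1 is also known as a macrophage gene, and the summed level of the macrophage markers was higher in the same livers.

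In glutathione synthesis neither subunit of the rate-limiting ligase passed the test. Gclc (14629, chr9:77754535-77794489), the catalytic subunit, had 545, 395 and 418 CPM in Control, 432, 260.0 and 337 CPM in NASH and 289, 360 and 202 CPM in NASH+Exercise. The NASH mice overlapped Control, and the log2 fold change of -0.40 did not pass (95% interval -0.94 to 0.14, edgeR adjusted p = 0.23); on log2(TPM + 1) it was 0.022. Gclm (14630, chr3:122245487-122267215), the modifier subunit, had 194, 192 and 137 CPM in Control, 173, 128 and 174 CPM in NASH and 166, 169 and 145 CPM in NASH+Exercise. All 3 groups overlapped, and the change in NASH was -0.14 (95% interval -0.52 to 0.24, edgeR adjusted p = 0.568), or 0.21 with library size alone.

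Slc7a11 (26570, chr3:50364936-50499087), the light chain of the cystine and glutamate exchanger, was near the limit of detection. Its counts were 1, 0 and 0 in Control, 30, 52 and 53 in NASH and 26, 17 and 8 in NASH+Exercise, which is at most 2.25 CPM in any liver. The 3 groups did not overlap. From the summed counts, scaled to the normalized library sizes, the ratio of NASH to Control was 104 (95% interval 18.3 to 4116, counting error only), and the fitted log2 fold change of 6.29 (edgeR adjusted p = 0.000145) depends on the prior count. Without Control replicate 3, which holds the single Control count, the fitted value was 8.34 (edgeR adjusted p = 0.00113).

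In the thioredoxin branch, Srxn1 (76650, chr2:152105524-152111376), which repairs overoxidized peroxiredoxins, had 52.9, 60.3 and 71.8 CPM in Control, 79.2, 54.2 and 62.2 CPM in NASH and 41.9, 46.9 and 43.3 CPM in NASH+Exercise. The 3 trained mice were below all other mice. The change from Control to NASH was 0.08 (95% interval -0.27 to 0.43, edgeR adjusted p = 0.738). Txnrd1 (50493, chr10:82833951-82897724), the cytosolic thioredoxin reductase, had 128, 128 and 121 CPM in Control, 122, 104 and 114 CPM in NASH and 110.2, 117 and 123 CPM in NASH+Exercise. Its change in NASH was -0.15 (95% interval -0.39 to 0.09, edgeR adjusted p = 0.322), or 0.20 with library size alone.

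Osgin1 (71839, chr8:119425882-119446257), an oxidative stress induced growth inhibitor, had 433, 313 and 87.1 CPM in Control, 692, 460 and 431 CPM in NASH and 725, 994 and 540 CPM in NASH+Exercise. The Control mice differed among themselves more than for any other of the targets above 1 CPM, and the highest Control mouse reached the lowest NASH mouse. The log2 fold change in NASH was 0.93 (95% interval -0.17 to 2.03, edgeR adjusted p = 0.173), while limma on log2(TPM + 1) gave 1.61 (adjusted p = 0.0216). Over its alternatives the adjusted p ran from 0.0216 to 0.378. The annotation places other genes across Gclm (Gm46822, Gm6061), Txnrd1 (Gm38560, Eid3) and Osgin1 (Gm32006), and reads shared with them could not be separated.

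**Figure D3:**
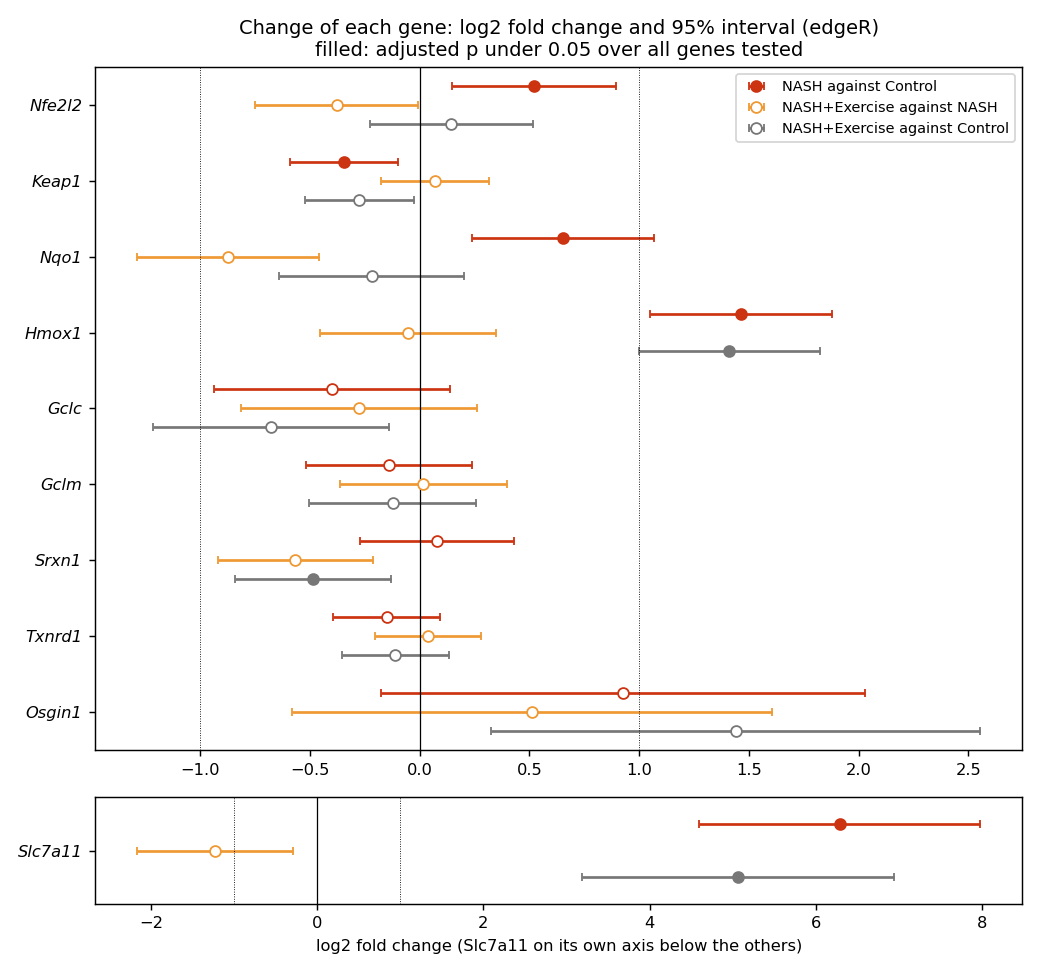
Log2 fold change (horizontal axis) with its 95% interval for each gene (vertical axis) in the 3 comparisons, with a filled point at an edgeR adjusted p under 0.05, dotted lines at 1 and -1, and Slc7a11 on an axis of its own. Hmox1 and Slc7a11 lie beyond 1 in both comparisons with Control, no point of NASH+Exercise against NASH is filled, and the fall of Keap1 turns to 0.010 with library size alone.

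To see what treadmill training did to the programme on the same diet, NASH+Exercise livers were compared with NASH livers. None of the 10 genes was a DEG with edgeR (0 of 10, where 0.14% of all tested genes were), and 0 of 10 passed at an adjusted p under 0.05 alone, where 0.162% of all tested genes did. At an unadjusted p under 0.05, 4 of the 10 were on the lower side in the trained livers, namely Nqo1, Srxn1, Slc7a11 and Nfe2l2, against 15.3% of all tested genes in either direction. That count of 4 ran from 2, in edgeR without NASH+Exercise replicate 22, to 6, with limma on log2(TPM + 1), over the alternatives. Groups did not overlap for 3 of the 10, Nqo1, Srxn1 and Slc7a11, against 24.1% of all tested genes. Slc7a11 passed the filter on low counts only with the NASH group, where it is highest, so no support is drawn from these counts. The median of the 10 was -0.16, and of all tested genes -0.03. DESeq2 fitted to these 6 mice also gave 0 DEGs among the 10, with 1 gene, Nqo1, at an adjusted p under 0.05, and limma on log2(TPM + 1) called Nqo1.

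Nqo1 differed most clearly, with a log2 fold change of -0.87 (95% interval -1.29 to -0.46, edgeR adjusted p = 0.116), an unadjusted p of 0.000778 in edgeR. All 3 trained mice were lower than all 3 NASH mice, and the exact permutation test gave 0.1, the smallest p that 3 mice against 3 allow. DESeq2 gave -0.83 (adjusted p = 0.00543) and limma on log2(TPM + 1) gave -1.05 (adjusted p = 0.0478), while the edgeR alternatives gave adjusted p values from 0.088 to 0.335. Thus the direction held in every fit, and the call depended on the test.

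Srxn1 was lower by -0.57 on the log2 scale (95% interval -0.92 to -0.21, edgeR adjusted p = 0.16), again without overlap. Its adjusted p over the alternatives ran from 0.0498, with limma on log2(TPM + 1), to 0.407. Slc7a11 had a ratio of summed counts of 0.429 (95% interval 0.305 to 0.596, counting error only), with 51 counts in NASH+Exercise against 135 in NASH, and a log2 fold change of -1.23 (edgeR adjusted p = 0.228) once the spread between mice was included. Nfe2l2 itself was at -0.38 (95% interval -0.75 to -0.0051, edgeR adjusted p = 0.32), and NASH+Exercise replicates 8 and 18 lay above the lowest NASH mouse.

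On the TMM scale Hmox1 did not share this pattern of values. Its log2 fold change in trained livers was -0.05 with a 95% interval of -0.45 to 0.35 (edgeR adjusted p = 0.923), so a fall of more than 0.45 on the log2 scale lies outside that interval. The contrast depended on the scaling. With library size alone the Hmox1 change was -0.26 (edgeR adjusted p = 0.326), and on log2(TPM + 1) it was -0.34 (limma adjusted p = 0.131). In TPM, the trained livers (65.36 to 72.18) were all below the NASH livers (74.99 to 99.45). Over the same mice the 14 macrophage markers summed to 893 to 1027 CPM, below the 1194 to 1309 CPM of NASH. Of the 14, 0 passed the test, where 0.162% of all tested genes did. Gclm stood at 0.02 (95% interval -0.36 to 0.40, edgeR adjusted p = 0.975), Txnrd1 at 0.04 (adjusted p = 0.903) and Keap1 at 0.07 (adjusted p = 0.819), all of which were negative with library size alone. Gclc was at -0.28 (edgeR adjusted p = 0.631) and Osgin1 at 0.51 (edgeR adjusted p = 0.662), with 95% intervals of -0.81 to 0.26 and -0.58 to 1.61.

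NASH+Exercise livers were last compared with Control livers, to see which values of the diet were still present after training. This comparison shares its mice with both of the others, so its values are given side by side with them and are not further evidence. Hmox1 and Slc7a11 were again DEGs, both higher, and Srxn1 fell. In counts, 2 of the 10 were DEGs, where 13.5% of all tested genes were, and at an adjusted p under 0.05 alone 2 rose, where 15.6% of all tested genes did, and 1 fell, where 9.58% did (25.1% in all). At an unadjusted p under 0.05 there were 6 of the 10, against 36.3% of all tested genes. Groups did not overlap for 6 of the 10, against 38.6% of all tested genes. The median of the 10 was -0.12, against 0.0032 over all tested genes. Here too Slc7a11 passed the filter on low counts only through the groups where it is high, so it had to differ from Control. No support is drawn from these counts.

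Hmox1 was higher in the trained livers than in Control by 1.41 on the log2 scale (95% interval 0.999 to 1.82, edgeR adjusted p = 0.000376), a fold of 2.66, beside a log2 value of 1.46 in sedentary NASH. Of the 14 macrophage markers, 11 were DEGs in this comparison, all higher, where 10.4% of all tested genes were DEGs on the higher side. Markers that are low in Control can have been tested only through the groups where they are high, so no support is drawn from that count. For Slc7a11 the ratio of summed counts was 44.4 (95% interval 7.61 to 1787, counting error only), beside 104 in NASH, and the fitted log2 fold change was 5.06 (edgeR adjusted p = 0.00155). In an edgeR fit of these 6 mice alone, Slc7a11 had too few counts to be tested and only Hmox1 was a DEG among the 10. Without Control replicate 3 the fitted value was 7.11 (edgeR adjusted p = 0.00604).

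Srxn1 fell by 0.49 on the log2 scale (SE 0.16, edgeR adjusted p = 0.0479), so it was at the edge of the threshold. Its adjusted p was 0.185 with library size alone, 0.261 with limma on log2(TPM + 1) and 0.0586 in edgeR on the 6 mice. The call was also lost without Control replicate 4 or 29, NASH replicate 20 or any of the 3 trained mice, when the edgeR adjusted p was 0.0692 to 0.144. Srxn1 was therefore lower in trained livers in every fit, by 0.33 to 0.59 on the log2 scale, with a call that was lost on leaving out any of 6 of the 9 mice.

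Osgin1 had its highest group mean in the trained mice, and its log2 fold change of 1.44 (95% interval 0.33 to 2.55) just missed the threshold (edgeR adjusted p = 0.0615). The 3 trained mice were above all 3 Control mice. The call was gained without Control replicate 3 (1.91, edgeR adjusted p = 0.0385), whereas without Control replicate 29, the lowest mouse, the change was 0.998 (edgeR adjusted p = 0.0387). It was gained as well with library size alone (1.63, edgeR adjusted p = 0.0328) and with limma on log2(TPM + 1) (1.81, adjusted p = 0.0222), and over all alternatives the adjusted p ran from 0.0222 to 0.165.

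Gclc was at -0.68 (95% interval -1.21 to -0.14, edgeR adjusted p = 0.067), with each trained mouse below each Control mouse, and DESeq2 gave -0.70 (adjusted p = 0.0193). Without NASH+Exercise replicate 18 the edgeR adjusted p was 0.0391, and over the alternatives the adjusted p ran from 0.0193 to 0.212. Keap1 was at -0.27 (edgeR adjusted p = 0.101), also without overlap. Nqo1 was at -0.22 (95% interval -0.64 to 0.20, edgeR adjusted p = 0.456) and Nfe2l2 at 0.14 (95% interval -0.23 to 0.52, edgeR adjusted p = 0.588), so neither could be told from Control, which does not show that they equalled it. Gclm and Txnrd1, at -0.12 and -0.11, were at 0.042 and 0.034 with library size alone.

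How the factor stood to its inhibitor within each liver was also computed, a ratio chosen after the values had been seen and one that no scaling between libraries can move. Nfe2l2 to Keap1, in TPM, was 1.56, 1.16 and 1.29 in Control, 2.63, 2.74 and 1.87 in NASH and 2.05, 1.87 and 1.39 in NASH+Exercise. All 3 NASH livers were above all 3 Control livers, and the trained livers overlapped both groups. The means were 1.34 ± 0.204, 2.41 ± 0.476 and 1.77 ± 0.341 (SD, n = 3), and the two-sided exact permutation tests gave 0.1 for NASH against Control, 0.3 for NASH+Exercise against NASH and 0.2 for NASH+Exercise against Control, where 0.1 is the smallest possible. A ratio in one liver shows unequal change of the pair and not which of them moved.

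The ligase subunits were set against each other in the same way. Gclc to Gclm was 1.80, 1.30 and 1.95 in Control, 1.59, 1.30 and 1.24 in NASH and 1.11, 1.35 and 0.886 in NASH+Exercise. All groups overlapped, with means of 1.68 ± 0.338, 1.38 ± 0.186 and 1.11 ± 0.233 (SD, n = 3) and exact permutation p of 0.2, 0.3 and 0.2 in the same order of comparisons.

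**Figure D4:**
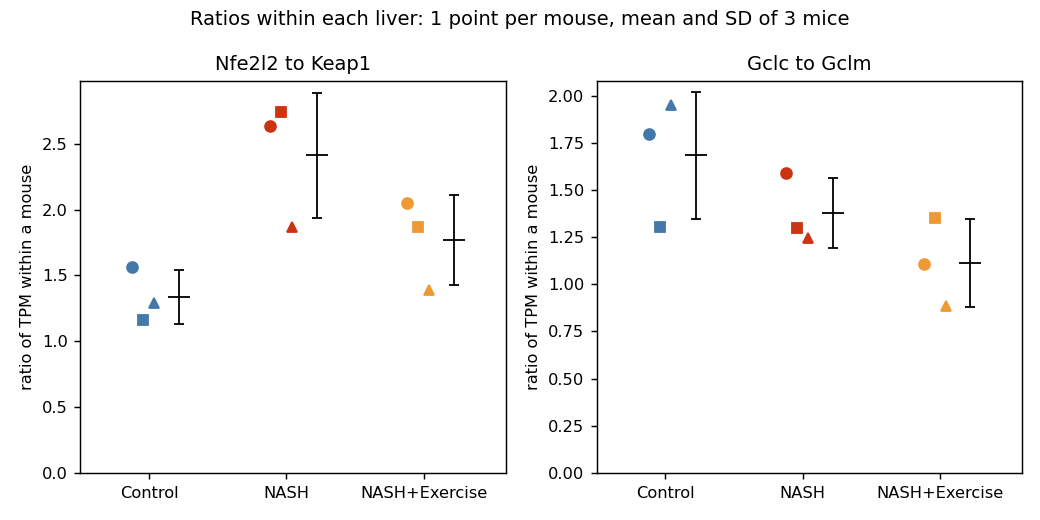
Ratio of TPM within each mouse (vertical axes, linear from 0) for Nfe2l2 to Keap1 and for Gclc to Gclm, by group (horizontal axis), with the mean and SD of 3 mice. For Nfe2l2 to Keap1 the NASH mice (1.87 to 2.74) lie above the Control mice (1.16 to 1.56), and for Gclc to Gclm all groups overlap.

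Around the 10 genes, 73 other genes of the pathway were listed by role, and 70 were tested, without Gpx2, Ggt1 and Mgst2. From Control to NASH, 9 of the 70 were DEGs on the higher side, where 15.3% of all tested genes were, and 2 on the lower, where 3.03% were. The higher count takes in genes, such as Cbr3 below, that passed the filter on low counts only through the groups where they are high. No support is drawn from it. The balance of directions rested on Control replicate 29, without which 6 were on the higher side and 8 on the lower, and with library size alone there were 13 and 1. At an adjusted p under 0.05 alone, 15 of the 70 rose and 22 fell, and the median was -0.26. These values are on the TMM scale and were not counted under the alternatives. Library size alone moved the median of all genes from 0.013 to 0.359. Of all tested genes 21.2% rose and 14.4% fell, and the counts of the lists by role that follow stand beside these same shares.

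Among the partners of NRF2, 3 of 12 rose and 1 fell. The rises were those of the small MAF genes, with Mafk at 0.71 (edgeR adjusted p = 0.00554), Mafg at 0.41 (adjusted p = 0.0248) and Maff at 1.34 (adjusted p = 0.0385). Over the alternatives the edgeR adjusted p of Mafg ran from 0.00288 to 0.0903, and it exceeded 0.05 without the filter and in the fits without Control replicate 4 or 29 or NASH replicate 5, 19 or 20. No alternatives were run for Mafk. The Maff call was lost in 6 of the fits without 1 mouse, those without Control replicate 4 or 29, NASH replicate 5, 19 or 20 or NASH+Exercise replicate 8, at edgeR adjusted p values of 0.0534 to 0.121. Bach1, a repressor at the same elements, was at 0.29 (edgeR adjusted p = 0.173), the ligase scaffold Cul3 at -0.21 (adjusted p = 0.618) and Sqstm1, the autophagy receptor p62 that binds KEAP1, at -0.40 (adjusted p = 0.1). Cul3 was positive with library size alone and on log2(TPM + 1), and Sqstm1 on the latter.

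In glutathione synthesis and use, 1 of 7 tested genes rose and 1 fell. The rise was that of Chac1, which degrades glutathione, from 1.83, 1.45 and 0.816 CPM in Control to 24.4, 2.87 and 6.50 CPM in NASH, a log2 fold change of 3.04 (edgeR adjusted p = 0.0123). It spread widely within NASH, and its log2 fold change ran from 1.78, without NASH replicate 5, to 3.48 when 1 mouse was left out. The call was lost without Control replicate 4 (edgeR adjusted p = 0.0659) or 29 (adjusted p = 0.0581). Slc3a2, the heavy chain that partners SLC7A11, was at -0.27 (edgeR adjusted p = 0.101), the reductase Gsr at -0.34 (adjusted p = 0.0728), the peroxidase Gpx4 at -0.16 (adjusted p = 0.471) and the synthetase Gss at -0.03 (adjusted p = 0.904). All 4 of these were positive with library size alone, and Gss then passed at 0.33 (edgeR adjusted p = 0.0295).

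None of 9 thioredoxin and peroxiredoxin genes rose and 5 fell, where 21.2% and 14.4% of all tested genes did, with a median of -0.53. These falls depend in part on TMM scaling. In mean TPM, Control and NASH had 78.7 and 79.8 for Prdx3 and 421 and 402 for Prdx5. The other 3 genes were lower in TPM too, from 229 to 182 for Txn2, from 27.8 to 20.9 for Txnrd2 and from 345 to 287 for Prdx6. These falls were smaller in proportion than in mean CPM. There Txn2 went from 198.6 to 116.2, Txnrd2 from 36.1 to 19.9 and Prdx6 from 564.5 to 344.5. Txn1 was at 0.17 (edgeR adjusted p = 0.442), and Prdx1 at -0.37 (adjusted p = 0.0642) and 0.058 on log2(TPM + 1). In NADPH supply 2 of 6 rose and 2 fell. G6pdx, the entry enzyme of the pentose phosphate pathway, had 4.19, 4.28 and 5.15 CPM in Control and 16.0, 16.1 and 16.9 CPM in NASH, a log2 fold change of 1.85 (edgeR adjusted p = 1.8e-05), and Pgd, the next NADPH-forming step, was at 1.05 (adjusted p = 0.000172). The Pgd change was 0.90 without Control replicate 29 and 0.99 without NASH replicate 5, under the limit of 1 on fold change. Malic enzyme Me1 went the other way, from 168, 144 and 131 CPM to 38.2, 20.3 and 41.7 CPM, a log2 fold change of -2.15 (edgeR adjusted p = 8.2e-05).

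Of 12 glutathione S-transferases 4 rose and 3 fell. Gstm3 had 27.3, 21.7 and 10.9 CPM in Control and 278, 198 and 122 CPM in NASH, a log2 fold change of 3.32 (edgeR adjusted p = 0.000186). Gsta1 was at 2.70 (adjusted p = 0.000195), Gstm1 at 0.88 (adjusted p = 0.0135), Gsta4 at 0.45 (adjusted p = 0.048) and Gstp1 at -0.52 (edgeR adjusted p = 0.269). Gsta4 values of Control and NASH overlapped, and over the alternatives its edgeR adjusted p ran from 0.002 to 0.19. That of Gstm1 ran from 0.000668 to 0.0611, and Gstm1 was a DEG with library size alone (1.24) and on log2(TPM + 1) (1.32). Members of this family are close copies, such as Gsta1 and Gsta2 or Gstp1 and Gstp2, so how reads were divided between such copies is uncertain.

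Among 14 carbonyl, quinone and xenobiotic enzymes and efflux pumps, 3 rose and 5 fell. Cbr3, a carbonyl reductase, had 0.161, 0.389 and 0.255 CPM in Control and 2.37, 3.76 and 1.83 CPM in NASH, a log2 fold change of 3.29 (edgeR adjusted p = 0.000205). Like Slc7a11, Cbr3 passed the filter on low counts only through the groups where it is high, so no support is drawn from its call. Aldh1a1, a retinal dehydrogenase, was at -1.04 (edgeR adjusted p = 0.00221) and was no longer a DEG with library size alone (-0.67), on log2(TPM + 1) (-0.58) or without Control replicate 3 or 4 or NASH replicate 5 (-0.97, -0.94 and -0.997). The epoxide hydrolase Ephx1 fell by 0.74 on the log2 scale (edgeR adjusted p = 0.0155, and 0.0115 to 0.0573 over the alternatives), and the efflux pump Abcc4 was at 0.12 (adjusted p = 0.772). In heme and iron handling, 1 of 6 rose and 2 fell, the ferritin light chain Ftl1 by 0.72 (edgeR adjusted p = 0.00732) and the biliverdin reductase Blvrb by 0.51 (adjusted p = 0.0444). Over the alternatives the adjusted p of Ftl1 ran from 0.000163 to 0.068, and was at most 0.0331 in edgeR. The fall of Blvrb was lost with library size alone (edgeR adjusted p = 0.343) and on log2(TPM + 1) (-0.055, limma adjusted p = 0.64), in the 6 mice alone and without Control replicate 3 or 4, NASH replicate 5 or 19 or NASH+Exercise replicate 18. Fth1 was at -0.21 (0.15 with library size alone) and Hmox2 at 0.15. Of 4 superoxide and peroxide enzymes, 1 rose and 3 fell.

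**Figure D5:**
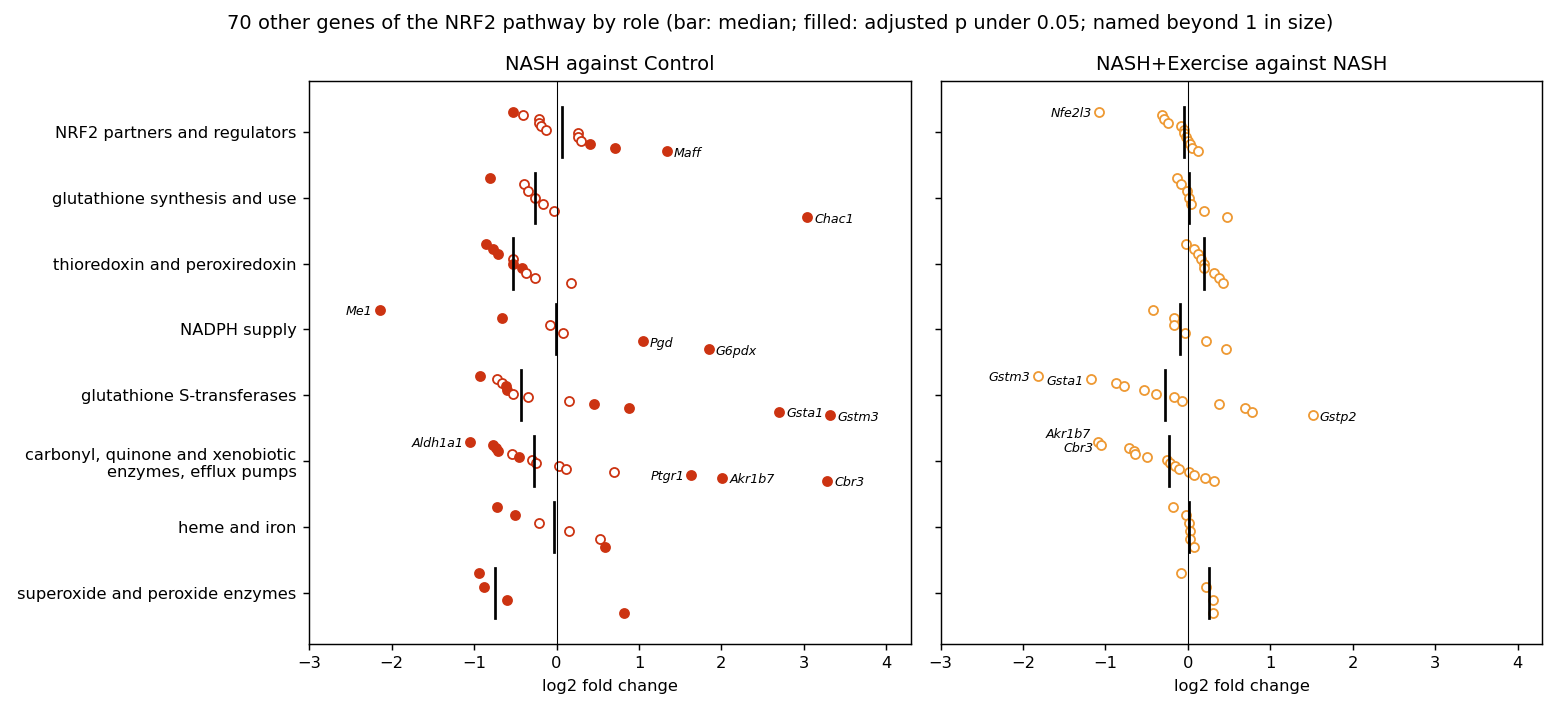
Log2 fold changes (horizontal axes) of the 70 other pathway genes by role (vertical axis) for NASH against Control and for NASH+Exercise against NASH, with the list median as a bar, filled points at an edgeR adjusted p under 0.05, and names beyond 1 in size. In the left panel filled points lie on both sides of 0, 15 higher and 22 lower, and in the right panel none is filled.

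In NASH+Exercise against NASH, 0 of the 70 genes were DEGs or passed at an adjusted p under 0.05 with edgeR, where 0.14% and 0.162% of all tested genes did. At an unadjusted p under 0.05 there were 21, where 15.3% of all tested genes were. DESeq2 and limma on log2(TPM + 1) each called 3 of the 70, 1 higher and 2 lower, of 204 and 110 genes called in all. Without NASH+Exercise replicate 8, edgeR called 1. The groups did not overlap for 24 of the 70, and for 9 of the 12 glutathione S-transferases, where 24.1% of all tested genes did not overlap. Gstm3 was at 46.4, 53.0 and 69.6 CPM in the trained livers, below all NASH livers, with a log2 fold change of -1.82 (edgeR adjusted p = 0.112, DESeq2 adjusted p = 4.08e-08). Gsta1 was at -1.17 (edgeR adjusted p = 0.145), Gstm1 at -0.88 (adjusted p = 0.147) and Cbr3 at -1.06 (adjusted p = 0.208), values that lie on the lower side like that of Nqo1. Of the 9 transferases without overlap, 4 lay on the higher side, namely Gsta3, Gstp1, Gstp2 and Mgst1. Gstp1 was at 0.78 (edgeR adjusted p = 0.317), and Gstp2, named after its values were seen, was at 1.51 (edgeR adjusted p = 0.0855), the highest log2 fold change and the smallest edgeR adjusted p of the 70 in this comparison. Gstp2 had 7.02, 6.83 and 6.46 CPM in NASH and 13.4, 14.9 and 29.7 CPM in NASH+Exercise. The median of the 70 was -0.024.

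In NASH+Exercise against Control, 6 of the 70 were DEGs on the higher side, where 10.4% of all tested genes were, and 4 on the lower, where 3.07% were. Without Control replicate 29 there were 5 and 8, and with library size alone 8 and 2, so this balance too rested on 1 mouse. At an adjusted p under 0.05 alone, 10 rose and 17 fell, where 15.6% and 9.58% of all tested genes did. The largest rises were those of Chac1 at 3.24 (edgeR adjusted p = 0.0126), Cbr3 at 2.23 (adjusted p = 0.00413) and Gsta1 at 1.53 (adjusted p = 0.0074). Cbr3 was again tested only through the groups where it is high, so no support is drawn from its call or from the count of rises. The largest falls were those of Me1 at -2.32 (edgeR adjusted p = 9.9e-05), Gsta2 at -1.71 (adjusted p = 0.000694) and the efflux pump Abcc3 at -1.19 (adjusted p = 0.0042). The Abcc3 call was lost with library size alone, where the change was -0.998, and without Control replicate 4, where it was -0.94. The edgeR adjusted p of Chac1 was 0.0661 without Control replicate 4 and 0.0642 without Control replicate 29.

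The genes whose pattern was most like that of Nqo1 and of Hmox1 were found by the root mean square (RMS) difference of centred log2 CPM over the 9 mice, among 9589 genes with at least 5 CPM on average. Among the 5 nearest to Nqo1 were Ptprs (RMS difference 0.175), Fem1c (0.177), Map4k4 (0.180) and Rin2 (0.182), where the median gene differed by 0.508. Nearest to Hmox1 were Ifitm3 (0.178), Igsf8 (0.187), Scd1 (0.204), Mapkapk3 (0.214) and Bst2 (0.224), where the median gene differed by 0.775. No other of the 10 genes was among the 5 nearest to Nqo1 or to Hmox1. Within the 10, Keap1 and Txnrd1 were closest to each other (0.107) and Nfe2l2 and Nqo1 differed by 0.254. These distances describe the 9 libraries, which share their groups, and were not tested.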

How the data were processed

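Each of the 9 mice had its own library. For every gene, listed by Entrez identifier, the authors deposited raw estimated counts (29.0 to 32.8% of values not whole), and TPM, which scale reads by transcript length so that every library has the same total. They also deposited FPKM, not used here. The submitters' processing notes name HISAT2 2.1.0, Bowtie2 2.2.5, RSEM 1.2.8 and GRCm38.p6, with no roles. A second copy of the values in a file of 1 mouse was compared (285536 values, 0 differing). Symbols, coordinates and promoters are from RefSeq tables of the same build. 17728 of 17846 identifiers had a symbol.

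Estimated counts were rounded. edgeR 4.0.16 in R 4.3.3 was run with filterByExpr (at least 10 counts, total 15), TMM, the robust quasi-likelihood fit on 3 groups in all 9 mice, and p values adjusted by Benjamini-Hochberg over 13619 genes. The study's thresholds (adjusted p under 0.05, absolute log2 fold change above 1) define DEGs. SE is the log2 fold change over the root of F. Alternatives were library size alone, RLE factors, DESeq2 1.42.0 and edgeR on the 6 mice compared, no filter, limma 3.58.1 on log2(TPM + 1), and leaving out each mouse. Promoters, ratios and exact permutation tests were computed in Python 3.11.15 with SciPy 1.17.1. The fits were tested on simulated data. Reads carry no molecular identifiers, so intervals on counts cover counting error only, and precision is set mainly by the spread of 3 mice in a group, and by depth for genes with few counts such as Slc7a11.

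The 10 genes, the pathway and marker lists and the tests were chosen with earlier results of these data known. Text names all 10 genes, the 3 DEGs with the largest rise and fall per comparison among the other pathway genes, a list of partner genes whatever their values, and the genes among the 5 most like Nqo1 and Hmox1, of which 1 is not reported here. Mafk, Gstp2, Txn2, Txnrd2, Prdx3, Prdx5, Prdx6 and, in trained livers, Gstm3 and Nqo1 were described after their values were seen.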

Additional observations from a re-analysis of the deposited data

How the results depend on the processing

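No paired analysis was possible because the groups share no replicate number. Hmox1 kept its direction and its call in all alternatives of both comparisons with Control. Among the 10 genes, DEGs in NASH against Control numbered 2 in every alternative and 2 in each fit without 1 mouse (range 2 to 2), though on log2(TPM + 1) with limma they were Hmox1 and Osgin1 in place of Hmox1 and Slc7a11, and without Control replicate 4 or NASH replicate 5 or 19 the genes at an adjusted p under 0.05 alone numbered 2 in place of 5. In NASH+Exercise against NASH they numbered 0, and 1 with limma on log2(TPM + 1). In NASH+Exercise against Control they numbered 2, and 1 in the 6 mice alone, where the filter removed Slc7a11, and 3 with library size alone, which added Osgin1; without 1 mouse they numbered 2 to 3. Over all genes, DEGs in NASH+Exercise against NASH numbered 19 (14 higher, 5 lower), 204 with DESeq2 (78 higher, 126 lower), 110 with limma on log2(TPM + 1) (25 higher, 85 lower), 15 in the 6 mice (13 higher, 2 lower), 18 without the filter (10 higher, 8 lower), and 0 to 34 without 1 mouse; the cause was not tested. DEGs in NASH+Exercise against Control numbered 1836, and 1068 with limma on log2(TPM + 1), whose pseudocount compresses low genes: Slc7a11 was there at 0.48 (NASH) and 0.19 (NASH+Exercise) against Control. Other pathway genes called in NASH+Exercise against NASH numbered 0, 3 with DESeq2, 3 with limma, and 0 to 1 without 1 mouse. Alternatives for the partner genes were added after seeing the data. Of the log2 fold changes of single genes under the alternatives, 1055 kept direction and side of the DEG threshold, 22 lost the call, 14 gained it and 48 turned direction, as follows.

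With library size alone in NASH against Control the changes were 0.010 for Keap1, 0.21 for Gclm, 0.20 for Txnrd1, 0.11 for Cul3, 0.33 for Gss, 0.0043 for Gsr, 0.21 for Gpx4, 0.090 for Slc3a2 and 0.15 for Fth1. In NASH+Exercise against NASH they were -0.13 for Keap1, -0.17 for Gclm and -0.16 for Txnrd1, and against Control 0.042 for Gclm and 0.034 for Txnrd1. On log2(TPM + 1) in NASH against Control they were 0.10 for Keap1, 0.022 for Gclc, 0.30 for Gclm, 0.28 for Txnrd1, 0.016 for Sqstm1, 0.29 for Cul3, 0.41 for Gss, 0.084 for Gsr, 0.29 for Gpx4, 0.22 for Slc3a2, 0.058 for Prdx1 and 0.24 for Fth1. On that scale NASH+Exercise against NASH gave -0.22 for Keap1, -0.27 for Gclm, -0.26 for Txnrd1 and -0.10 for Aldh1a1, and NASH+Exercise against Control gave 0.026 for Gclm and 0.020 for Txnrd1. Both scales lack the TMM factors, and the median of all genes moved the same way. Fits without 1 mouse turned direction for 9 genes, given by their range over the 9 mice left out in turn and the mice concerned. In NASH against Control, Srxn1 ran from -0.087 (without NASH replicate 5) to 0.17, with -0.024 without Control replicate 3, Gss from -0.17 to 0.082 (without Control replicate 4), with 0.042 without NASH replicate 19, Gpx4 from -0.30 to 0.0066 (without Control replicate 4) and Abcc4 from -0.093 (without Control replicate 4) to 0.23. In NASH+Exercise against NASH, Hmox1 ran from -0.18 to 0.068 (without NASH replicate 5), with 0.061 without NASH+Exercise replicate 8, Gclm from -0.097 (without NASH replicate 19) to 0.091, with -0.0060 and -0.022 without NASH+Exercise replicate 8 and 18, Txnrd1 from -0.00025 (without NASH replicate 19) to 0.098, Chac1 from -0.25 (without NASH replicate 19) to 1.47, with -0.075 without NASH replicate 20 and -0.10 without NASH+Exercise replicate 22, and Me1 from -0.41 to 0.023 (without NASH replicate 20). None of the values in this paragraph was a DEG, and Gss alone was at an adjusted p under 0.05, with library size alone (edgeR, 0.0295) and on log2(TPM + 1) (limma, 0.00845). With 8 to 53 counts per mouse in the groups where it is seen, Slc7a11 is the gene of the 10 that depth limits most, and Nqo1 followed with 86 to 256 counts per mouse.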
